A study of Mus musculus with 6 samples.

Results

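The genes of RNA polymerase II (Pol II), of the initiation factor TFIID and of the Mediator complex were described in mRNA-seq libraries of Day 4 embryoid bodies (D4 EBs). The members were every gene of the deposited table whose symbol was *Polr2a* to *Polr2m*, a *Taf* or *Med* symbol followed by a number, or *Tbp*, leaving out *Taf15* and *Taf1a* to *Taf1d*, whose products belong elsewhere. This gave 62 of the 15266 listed genes, 13 of Pol II, 19 of TFIID and 30 of Mediator. The symbols did not delimit the complexes exactly. *Polr2m* encodes a factor that binds Pol II rather than a core subunit, *Taf5l* and *Taf6l* encode subunits of the coactivator SAGA, and the kinase and cyclin of Mediator (*Cdk8*, *Cdk19*, *Ccnc*) carry other names.

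The 6 libraries were numbered 1 to 3 in each of the lines EVX1-Δfs and Del#3. Both lines were made in W9.5 mouse embryonic stem cells and were differentiated in serum, with LIF withdrawn, for 4 days. EVX1-Δfs (clone 14) carries frameshift mutations in the homeodomain exon of *Evx1* on both alleles and keeps the antisense gene *Evx1as* in place. Del#3 carries a 2.6 kb deletion that takes out the start of *Evx1* and most of *Evx1as*. EVX1-Δfs is 1 clone, and no clone is named for Del#3. Both lines lack functional EVX1, so no wild-type level of any member is given here. According to the sample protocol and the published methods, lines to be compared were differentiated in parallel on a given day and each replicate on another day. The day of each library is not given, so the reading that libraries of equal number share a day, called a replicate day here, is inferred from those statements.

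Pol II transcribes protein-coding genes. Its largest subunits form the active site and most of the small ones hold the enzyme together, and 5 of them also serve in Pol I and Pol III. TFIID, made of TBP and TBP-associated factors (TAFs), recognises the core promoter. Mediator relays signals from enhancer-bound activators to Pol II through its head, middle and tail modules, while a separable kinase module restrains or modifies that contact. These genes are active in nearly all cells, and *Tbp* and *Polr2a* are often used as reference genes, whereas some of the TAF genes have paralogues restricted to germ cells or to particular lineages.

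As a check of the labels, *Evx1* read 2655, 3671 and 3051 normalized counts in EVX1-Δfs and 38.3, 32.5 and 33.1 in Del#3. *Evx1as* (listed as *5730457N03Rik*) read 580.1, 689 and 675 in EVX1-Δfs and 16.7, 25.5 and 32.0 in Del#3. The lines did not overlap for either gene. Depth on listed genes was 9024579 to 15699124 reads in EVX1-Δfs and 9729013 to 12231851 reads in Del#3, with replicate 1 the deepest in each line. The 6 pluripotency markers summed to 8430.0 to 9874 normalized counts in EVX1-Δfs and 6159 to 10406.5 in Del#3, and the 8 primitive streak and mesoderm markers to 7907 to 9895 and 6711 to 9942. All 6 pluripotency markers had a negative log2 fold change, Del#3 over EVX1-Δfs, from -0.82 to -0.06 with a median of -0.34, with *Zfp42* at an unadjusted p under 0.05. Values were also negative for 4 of 5 endoderm markers (median -0.14) and both neurectoderm markers tested (median -0.11), and positive for 5 of 6 blood and endothelial markers (median 0.05) and 4 of 8 primitive streak and mesoderm markers (median -0.02). None of the tested markers of any list was called (limma), and the part of these differences in the members' values was not tested. *Sox1*, *Pax6* and *Afp* were too low to test. The libraries are of whole EBs, in which fewer cells of a type and less RNA per cell cannot be told apart.

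Promoter sequence is shown for 4 members whose values the results turn on, namely *Polr2a*, which spread most between libraries, *Taf1*, whose fold change between the lines was the largest, and *Polr2i* and *Polr2l*, whose F values between replicate days were the largest. Each line gives, 5′ to 3′, the 250 bases before the RefSeq start in GRCm38.p6. The windows are chr11:69758634-69758883 on the minus strand, chrX:101532485-101532734 on the plus strand, chr7:30231824-30232073 on the plus strand and chr7:141475154-141475403 on the minus strand. Capitals mark matches on either strand to any of 5 motifs, a TATA box (TATAAA), an ETS site (CCGGAAG), a YY1 site (AAGATGGC), an NRF1 site (GCGCATGC) and a CCAAT box (CCAAT).
Polr2a: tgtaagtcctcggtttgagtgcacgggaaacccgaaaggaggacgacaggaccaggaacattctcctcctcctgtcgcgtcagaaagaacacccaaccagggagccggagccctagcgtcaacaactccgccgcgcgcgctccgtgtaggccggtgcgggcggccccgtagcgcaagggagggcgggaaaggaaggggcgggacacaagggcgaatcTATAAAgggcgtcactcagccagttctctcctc
Taf1: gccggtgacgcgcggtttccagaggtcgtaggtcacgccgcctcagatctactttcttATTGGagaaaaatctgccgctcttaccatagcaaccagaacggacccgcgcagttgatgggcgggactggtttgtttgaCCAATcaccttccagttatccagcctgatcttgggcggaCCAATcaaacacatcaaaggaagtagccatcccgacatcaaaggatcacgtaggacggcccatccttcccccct
Polr2i: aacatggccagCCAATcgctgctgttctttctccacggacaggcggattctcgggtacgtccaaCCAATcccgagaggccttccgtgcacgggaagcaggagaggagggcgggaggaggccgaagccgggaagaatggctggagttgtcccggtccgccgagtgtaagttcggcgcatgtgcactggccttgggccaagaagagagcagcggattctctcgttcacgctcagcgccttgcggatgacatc
Polr2l: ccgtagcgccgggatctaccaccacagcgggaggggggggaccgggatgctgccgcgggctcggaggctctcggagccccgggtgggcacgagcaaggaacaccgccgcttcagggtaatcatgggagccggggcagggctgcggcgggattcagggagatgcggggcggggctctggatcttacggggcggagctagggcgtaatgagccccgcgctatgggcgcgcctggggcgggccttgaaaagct

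The *Polr2a* window held TATAAA starting 33 bases before the start, on the strand of the gene. *Taf1* held CCAAT on its own strand at 113 and 74 bases and, read on the other strand, at 192 bases before the start. *Polr2i* held CCAAT at 239 and 186 bases, and none of the 5 motifs was in the *Polr2l* window. Promoters of this length were found for 51 of the 62 members. TATAAA was in 10 of them (19.6%) and in 3504 of all 27025 promoters, CCGGAAG in 10 (19.6%) against 7.05%, GCGCATGC in 6 (11.8%) against 2.32%, AAGATGGC in 1 (1.96%) against 1.59%, and CCAAT in 17 (33.3%) against 34.5%. The member promoters held a median of 18 CG dinucleotides, and all promoters a median of 6. These matches describe letters in the windows and not binding.

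Nearly all members had enough reads to test. Of the 62 members, 61 passed the filter on low counts and only *Taf7l* did not. To compare genes, levels were taken as normalized counts per kb of the shortest transcript with the longest reading frame, as mean ± SD over the 6 libraries. The highest level was that of *Polr2e*, 3030.3 ± 220.2 per kb, and the lowest among tested members was that of *Med12l*, 3.63 ± 1.87. *Polr2m* had no length in the annotation used.

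**Figure D1:**
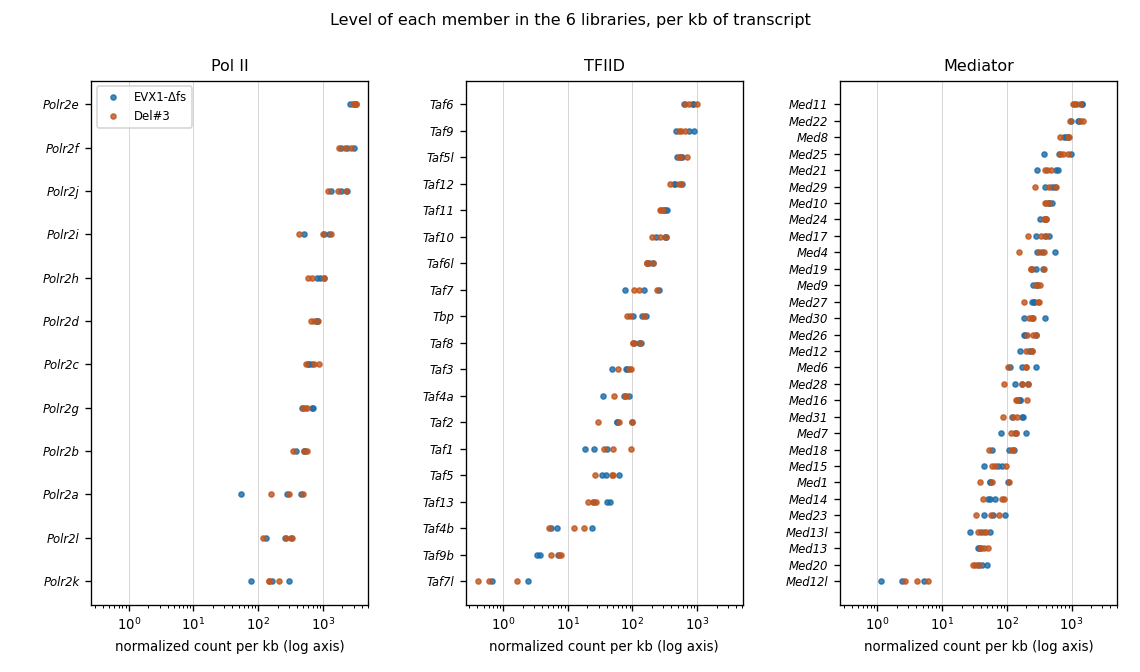
Normalized count per kb of transcript (log axis) of each member with a known length, in the 3 EVX1-Δfs (blue) and 3 Del#3 (orange) libraries, ordered by mean within each complex. Pol II subunits occupied the top of the range with *Polr2e*, while *Taf7l*, *Taf9b*, *Taf4b* and *Med12l* lay apart at the bottom, and the value of 0 of *Taf7l* in 1 library is not drawn.

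The catalytic subunits of Pol II spread over unlike ranges. *Polr2a*, which encodes the largest subunit with the C-terminal repeat domain (chr11:69547499-69572139 in NCBIM37), read 3114, 1890.4 and 369.8 normalized counts in EVX1-Δfs and 3282, 1079 and 2047 in Del#3. *Polr2b*, the second largest subunit, read 2134, 1579 and 2175 in EVX1-Δfs and 2089.7, 1436 and 2352 in Del#3. *Polr2a* was thus high in both replicate 1 libraries and far below all others in EVX1-Δfs replicate 3, while *Polr2b* stayed within a 1.64-fold range. Per kb, the ratio of *Polr2a* to *Polr2b* was 0.897, 0.736 and 0.105 in EVX1-Δfs and 0.966, 0.462 and 0.535 in Del#3. The mean ratio did not differ between the lines beyond its spread, at 0.579 ± 0.419 and 0.654 ± 0.272 (SD, n = 3 each, 2-sided exact permutation test, p = 0.9). Reads of *Polr2b* could be shared with the overlapping same-strand model *AC141469.5*.

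The remaining members of the Pol II set spanned 108 to 5515 normalized counts on average, from *Polr2k* to *Polr2m*, and the highest mean of a core subunit was 3479, that of *Polr2e*. Of the subunits that hold the enzyme core together, *Polr2c* read 2685, 2318 and 2376 in EVX1-Δfs and 3338, 2822 and 2134 in Del#3. *Polr2j* read 849, 1235 and 1531 in EVX1-Δfs and 781, 1500.2 and 1096 in Del#3. *Polr2c* overlapped widely between the lines, and *Polr2j* was lowest in both replicate 1 libraries. The stalk subunits, which dock RNA-processing factors, varied little. *Polr2d* read 789, 766 and 789 in EVX1-Δfs and 638, 814 and 709 in Del#3. *Polr2g* read 612, 411 and 585 in EVX1-Δfs and 426, 489 and 457 in Del#3. The largest of these stalk values was 1.28 times the smallest for *Polr2d* and 1.49 times for *Polr2g*.

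Of the 5 subunits shared with Pol I and Pol III, 1 (*Polr2l*) was called between replicate days, against 4.24% of all genes, as described with the comparison of days. *Polr2e* was the most constant of all tested members, at 3044, 3439 and 3599 normalized counts in EVX1-Δfs and 3688, 3725 and 3379 in Del#3, a 1.22-fold range. *Polr2l* (chr7:148657759-148661031 in NCBIM37) read 216, 428 and 534 in EVX1-Δfs and 195, 559.7 and 447 in Del#3. *Polr2k* read 185, 48.1 and 100.4 in EVX1-Δfs and 132, 91.7 and 91.8 in Del#3. *Polr2l* was lowest in both replicate 1 libraries, whereas *Polr2k* was highest there. *Polr2i*, a subunit near the jaw of the enzyme that contributes to fidelity (chr7:31016967-31018409 in NCBIM37), read 420.4, 846 and 1021 in EVX1-Δfs and 354, 1096 and 813 in Del#3, again lowest in both replicate 1 libraries. *Polr2m* read 4972, 6245 and 5535 in EVX1-Δfs and 4846, 5571 and 5923 in Del#3, the highest normalized counts of any member, within a 1.29-fold range. *Polr2f* and *Polr2h* averaged 1266 and 799.

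In TFIID, *Taf6* had the highest level per kb of the 13 canonical TAFs, 785 ± 135, and *Taf13* the lowest, 30.4 ± 9.74. This order depends on the transcripts of the annotation, in which the *Taf10* transcript used is 4281 bases long with a reading frame of 657, which gives *Taf10* 282 per kb, and a shorter one would raise it. *Taf6*, a histone-fold subunit, read 1463, 1982 and 1964 normalized counts in EVX1-Δfs and 1491, 2250.4 and 1698 in Del#3. *Taf13*, also a histone-fold subunit, read 99.0, 59.8 and 109 in EVX1-Δfs and 61.4, 49.9 and 66.2 in Del#3, and its lowest and highest libraries overlapped between the lines. *Tbp*, which binds the TATA element, read 306, 195 and 269 in EVX1-Δfs and 289, 157 and 175 in Del#3. It was lower in Del#3 than in EVX1-Δfs in each same-numbered pair, although the ranges of the lines overlapped. Its level per kb was 123 ± 33.7 with the transcript chosen and 18.1 with the longest coding transcript.

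*Taf1*, the largest TFIID subunit and its scaffold (chrX:98728073-98797128 in NCBIM37), read 327, 151 and 203 normalized counts in EVX1-Δfs and 759, 290.3 and 398 in Del#3. In each same-numbered pair the Del#3 library was the higher, by 2.32-, 1.92- and 1.96-fold, but the lines overlapped, since EVX1-Δfs replicate 1 lay above Del#3 replicate 2. *Taf7*, whose product binds TAF1 and restrains it before elongation, read 736, 223 and 438 in EVX1-Δfs and 681, 309 and 371 in Del#3. It was highest in both replicate 1 libraries. *Taf2*, which contacts the promoter initiator element, read 490.4, 292 and 291 in EVX1-Δfs and 496, 146 and 312 in Del#3, and was highest in the same libraries. Means of the other 8 canonical TAFs (*Taf3*, *Taf4a*, *Taf5*, *Taf8*, *Taf9*, *Taf10*, *Taf11*, *Taf12*) ran from 141 for *Taf5* to 1206 for *Taf10*.

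In all, 7 pairs of paralogues were compared by the share, per kb, that the second gene took of the pair. *Taf4b*, known for its role in germ cells, read 121, 35.2 and 28.4 normalized counts in EVX1-Δfs and 92.4, 26.7 and 64.1 in Del#3. *Taf4a* read 331, 397 and 154 in EVX1-Δfs and 356, 225 and 339.6 in Del#3. The share of *Taf4b* ran from 7.06% to 23.9%, and it was highest in both replicate 1 libraries. *Taf5l* read 1395, 1650.1 and 1669 in EVX1-Δfs and 1562, 2023 and 1494 in Del#3. *Taf5* read 204, 128 and 109 in EVX1-Δfs and 157, 87.1 and 163 in Del#3. The SAGA gene of this pair took 88.5% to 96.3%. *Taf6l* read 390.1, 318 and 339 in EVX1-Δfs and 319, 398 and 317 in Del#3 and took 16.3% to 24.4% of the pair with *Taf6*.

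*Taf7l*, a germ cell and adipocyte paralogue of *Taf7*, had 0 to 4 reads per library, and its normalized counts were 1.32, 4.69 and 0 in EVX1-Δfs and 0.797, 1.16 and 3.20 in Del#3. The 0 in EVX1-Δfs replicate 3 allows up to 3 reads, or 3.54 normalized counts, by counting error alone. *Taf9b* read 17.8, 9.38 and 8.27 in EVX1-Δfs and 19.9, 13.9 and 18.2 in Del#3. *Taf9* read 1095, 584 and 911 in EVX1-Δfs and 801, 680.5 and 634 in Del#3. *Taf9b* took 0.667% ± 0.197 of the pair in EVX1-Δfs and 1.19% ± 0.194 in Del#3 (SD, n = 3 each), and every Del#3 library lay above every EVX1-Δfs library (p = 0.1 by a 2-sided exact permutation test, which is the lowest value possible here, and 0.7 when adjusted over the 7 pairs).

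In the kinase module of Mediator, *Med12* read 1511, 1638 and 1088 normalized counts in EVX1-Δfs and 1656, 1325 and 1696 in Del#3. Its paralogue *Med12l* read 53.5, 24.6 and 11.8 in EVX1-Δfs and 63.0, 27.9 and 42.7 in Del#3. *Med12l* took 0.715% to 2.46% of the pair, and was highest in both replicate 1 libraries and lowest in EVX1-Δfs replicate 3. *Med13*, which joins the module to the core, read 384, 389 and 427 in EVX1-Δfs and 544, 470.3 and 409 in Del#3. *Med13l* read 369, 509 and 250.5 in EVX1-Δfs and 418, 331 and 446 in Del#3. Those paralogues lay at similar levels per kb, *Med13l* taking 39.9% to 59.7%. The shares of *Taf4b*, *Taf5l*, *Taf6l*, *Taf7l*, *Med12l* and *Med13l* gave exact permutation p from 0.4 to 1 between the lines (2-sided, n = 3 each).

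The head of Mediator, which contacts Pol II, held *Med11* with the highest level per kb, 1260.0 ± 170.1 (622 with the longest coding transcript), and *Med20* with the lowest, 37.5 ± 6.95. *Med11* read 638, 517 and 636 normalized counts in EVX1-Δfs and 469, 609.6 and 494 in Del#3. *Med20* read 273, 199 and 230.4 in EVX1-Δfs and 178, 165 and 210.4 in Del#3. *Med20* shares exonic sequence with *Usp49* in the annotation and both its length and its reads are uncertain. *Med17*, the head scaffold, read 1107, 1542 and 1766 in EVX1-Δfs and 834, 1587 and 1335 in Del#3. *Med18* read 99.0, 217 and 179.6 in EVX1-Δfs and 89.3, 206 and 199.7 in Del#3. *Med17* and *Med18* were lowest in both replicate 1 libraries. *Med6*, at 298, 119.5 and 183 in EVX1-Δfs and 209.6, 111 and 213 in Del#3, was lowest in both replicate 2 libraries.

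At the interface of head and tail, *Med29* read 506, 641 and 701 in EVX1-Δfs and 346, 730.4 and 581 in Del#3. *Med28* read 604, 793 and 961 in EVX1-Δfs and 416, 979 and 794 in Del#3. Both genes were lowest in the replicate 1 libraries of their line. In the middle module, *Med1*, the subunit that binds nuclear receptors, read 841, 444 and 447 in EVX1-Δfs and 863, 305 and 469 in Del#3. *Med4*, which helps join the middle module together, read 715, 386 and 451 in EVX1-Δfs and 493, 204 and 410.1 in Del#3. Both were highest in replicate 1 of each line. *Med21* read 473, 241 and 496 in EVX1-Δfs and 315, 338 and 394 in Del#3. *Med31* read 207, 139 and 198 in EVX1-Δfs and 100.4, 165 and 143 in Del#3. These were lowest in EVX1-Δfs replicate 2 and Del#3 replicate 1 within their lines. *Med10* read 436, 382 and 386 in EVX1-Δfs and 347, 381 and 341 in Del#3. It had all its EVX1-Δfs values above all its Del#3 values, by as little as 382 against 381.

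*Med14*, the central scaffold, read 461, 359 and 380.4 in EVX1-Δfs and 595, 297 and 639 in Del#3. In the tail, which receives activators, *Med25* read 1624, 2486 and 956 in EVX1-Δfs and 1857, 1715 and 2227 in Del#3. *Med23* read 467, 301 and 222 in EVX1-Δfs and 379, 167 and 279 in Del#3. *Med25* was lowest in EVX1-Δfs replicate 3, as *Polr2a* was, and *Med23* was highest in replicate 1 of each line. Means of the Mediator genes not given by library (*Med7*, *Med8*, *Med9*, *Med15*, *Med16*, *Med19*, *Med22*, *Med24*, *Med26*, *Med27*, *Med30*) ran from 160.0 for *Med7* to 1191 for *Med24*.

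The first comparison asked whether the machinery differed between a line that keeps *Evx1as* and one that has lost most of it. No member differed past the threshold when the replicate days were left out of the model, and 1, *Taf1*, did with the days as a block in DESeq2 (adjusted p 0.0476). With limma on log2(normalized count + 1) and Benjamini-Hochberg adjustment over 12891 genes, 0 of 61 members were called, against 2 of all genes (0.0155%), which were *Evx1* and *Evx1as*. At an unadjusted p under 0.05 there was 1 member, *Taf1*, against 1.03% of all genes. edgeR and DESeq2 on the recovered reads also called 0 members without the replicate block, with 1 member at an unadjusted p under 0.05 each, against 1.12% and 1.33% of all genes.

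Most differences between the lines were small. The members' median log2 fold change, Del#3 over EVX1-Δfs, was -0.02, and that of all genes tested was 0.00. Of the 61, 26 had a positive and 35 a negative value (31 and 30 when libraries were scaled by total reads), with medians of -0.03 in Pol II, -0.03 in TFIID and -0.02 in Mediator. The 95% interval of the difference lay within 2-fold either way for 45 of 61 members (73.8%) and for 61.1% of all genes, and for 55 members (90.2%) against 76.2% with the replicate block. Without EVX1-Δfs replicate 2 the count of 45 fell to 27. The share of all genes in that fit is not given here, so the fall cannot be read as particular to the members. For the remaining members a difference of 2-fold was not excluded by the interval.

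**Figure D2:**
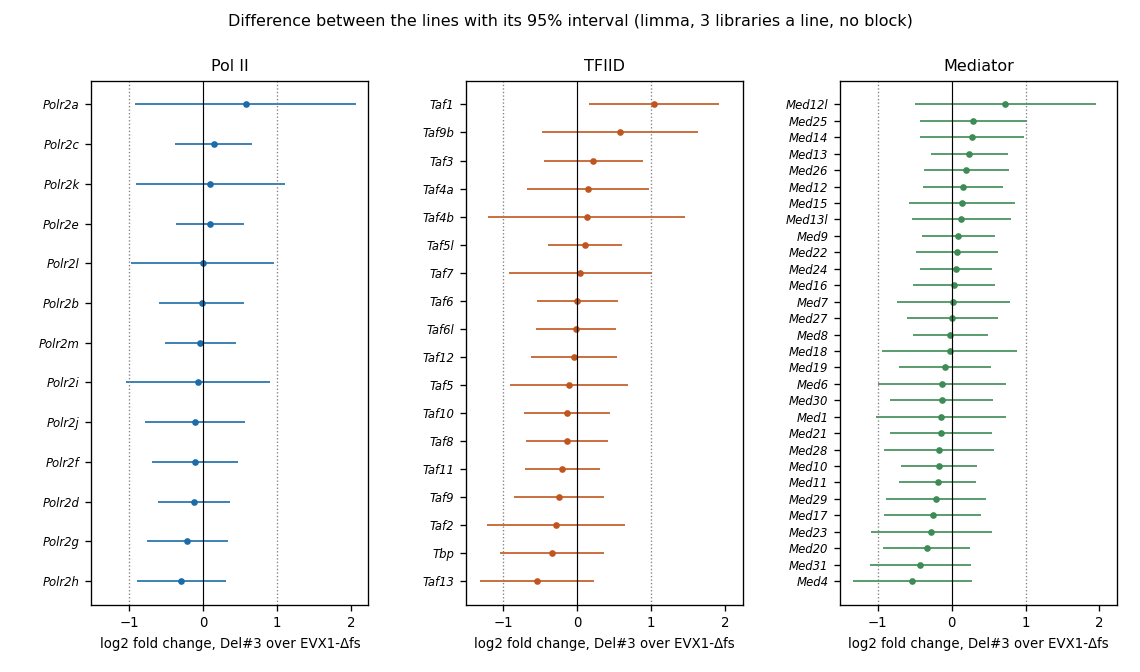
Log2 fold change of each tested member, Del#3 over EVX1-Δfs, as a point with its 95% interval (limma, 3 libraries per line), with dotted lines at 2-fold. Only the interval of *Taf1* leaves out 0, and those of *Polr2a* and *Med12l* are the widest in their panels.

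The differences furthest above 0 were those of *Taf1*, 1.04 (SE 0.40), *Med12l*, 0.73 (SE 0.55), and *Polr2a*, 0.58 (SE 0.67), on the log2 scale. Those furthest below 0 were *Taf13*, -0.55 (SE 0.35), *Med4*, -0.53 (SE 0.37), and *Med31*, -0.42 (SE 0.31). All had an adjusted p of 1.00 with limma. The value of *Polr2a* rested on EVX1-Δfs replicate 3, since in pairs 1 and 2 Del#3 was 1.05 and 0.571 times EVX1-Δfs and in pair 3 it was 5.54 times. By role, all 4 kinase module genes among the members had positive values, from 0.13 to 0.73. By pair, *Med12* and *Med13l* were lower in Del#3 in pair 2 (-0.31 and -0.62), *Med13* in pair 3 (-0.06) and *Med12l* in none. The kinase and cyclin genes of that module, *Cdk8*, *Cdk19* and *Ccnc*, had values of -0.11, -0.10 and 0.04. In the head, 6 of 7 genes had negative values (5 with TMM factors and 4 with totals), from -0.34 to 0.07. None of these genes was called.

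*Taf1* was the member whose call depended on the treatment of the replicate days. Without the block its log2 fold change of 1.04 had an unadjusted p of 0.0249 and an adjusted p of 1.00 (limma). With the replicate block in limma the standard error was 0.18 and the adjusted p 0.693, and limma called 0 members and 0.0233% of all genes. With the block in DESeq2 the log2 fold change was 1.05 (SE 0.25) and the adjusted p 0.0476, so that *Taf1* was 1 of 9 genes called (0.0726%). When each library was left out of that fit in turn, the adjusted p of *Taf1* ran from 0.0328 to 1.00 and was below 0.05 only without EVX1-Δfs replicate 3 (0.0328) and without Del#3 replicate 3 (0.0384), where 180 and 178 genes were called in all, and in 1 fit, without Del#3 replicate 2, DESeq2 gave none. With the block in limma the adjusted p ran from 0.0133 to 1.00 when each library was left out, and was below 0.05 without EVX1-Δfs replicate 3 (0.0133) and without Del#3 replicate 3 (0.0144), where 292 and 301 genes were called in all. With the block, a library whose same-numbered partner is left out adds nothing to the difference between the lines. The fits without either replicate 3 library thus rest on the same remaining pairs and are not independent of each other. With the block and a correction for GC content and transcript length, the log2 fold change was 0.66 in both tools and the adjusted p 0.665 in DESeq2 and 0.839 in limma. At an unadjusted p under 0.05 the block in limma gave 2 members, *Taf1* and *Med4*, or 3.28%, against 4.62% of all genes.

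Few members had ranges that did not overlap between the lines. No member had all Del#3 libraries above all EVX1-Δfs libraries, against 1.71% of all genes. *Med10* and *Taf11* (3.28%) had all Del#3 libraries below, against 1.80%. Del#3 was the higher in all 3 same-numbered pairs for *Med12l*, *Med26*, *Taf1* and *Taf9b* (6.56%, against 12.1% of all genes), and the lower in all 3 for *Med10*, *Med20*, *Med4*, *Taf11*, *Taf13*, *Taf8* and *Tbp* (11.5%, against 11.0%).

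On the X chromosome lie 5 members, of which 4 were tested. *Taf1*, *Taf9b*, *Med14* and *Med12* had log2 fold changes of 1.04, 0.58, 0.28 and 0.16, all positive. By pair, *Med14* and *Med12* were lower in Del#3 in pair 2 (-0.27 and -0.31), and *Taf1* and *Taf9b* in none. *Taf9b* had only 7 to 27 reads per library. Among the 56 autosomal members with a known position 22 were positive, and the median was -0.06. Of all 457 X-linked genes tested 266 were positive, with a median of 0.08. None of the X-linked members was called without the replicate block, and whether they differ from the autosomal members was not tested.

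No call was made between the lines among 79 other genes of the transcription machinery. They comprised other general transcription factors (17), the CDK-cyclin of Mediator (3), TBP partners (4), pausing and elongation factors (23), SAGA subunits (13) and subunits of Pol I (8) and Pol III (11). With limma 0 of 79 were called, in either direction, against 0.0155% of all genes. At an unadjusted p under 0.05 there were 0, against 1.03% of all genes. edgeR and DESeq2, with and without the block, also called 0 of them. Of the kinase genes of Mediator, *Cdk8* read 718, 601 and 669.9 in EVX1-Δfs and 704, 475 and 681 in Del#3. *Cdk19* read 104, 49.2 and 41.4 in EVX1-Δfs and 91.7, 31.4 and 59.8 in Del#3. Their cyclin *Ccnc* read 164, 134 and 266 in EVX1-Δfs and 127, 231 and 217 in Del#3. *Cdk19*, like *Med12l*, was highest in both replicate 1 libraries.

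The second comparison asked how far the members varied between replicate days, whatever the line. Days accounted for 64.4% of the sum of squares of the members' log2 values and the lines for 11.2%, and over all genes tested these were 60.5% and 13.7%. The rest was 24.4% for the members and 25.8% for all genes. The replicate number takes more degrees of freedom than the line, so its share cannot be set directly against that of the lines. A moderated F test on the replicate number, with the line as a covariate, called 5 of 61 members (8.20%) and 4.24% of all genes (limma, adjusted p under 0.05). The members called were *Polr2i*, *Polr2l*, *Taf1*, *Taf7* and *Med1*.

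**Figure D3:**
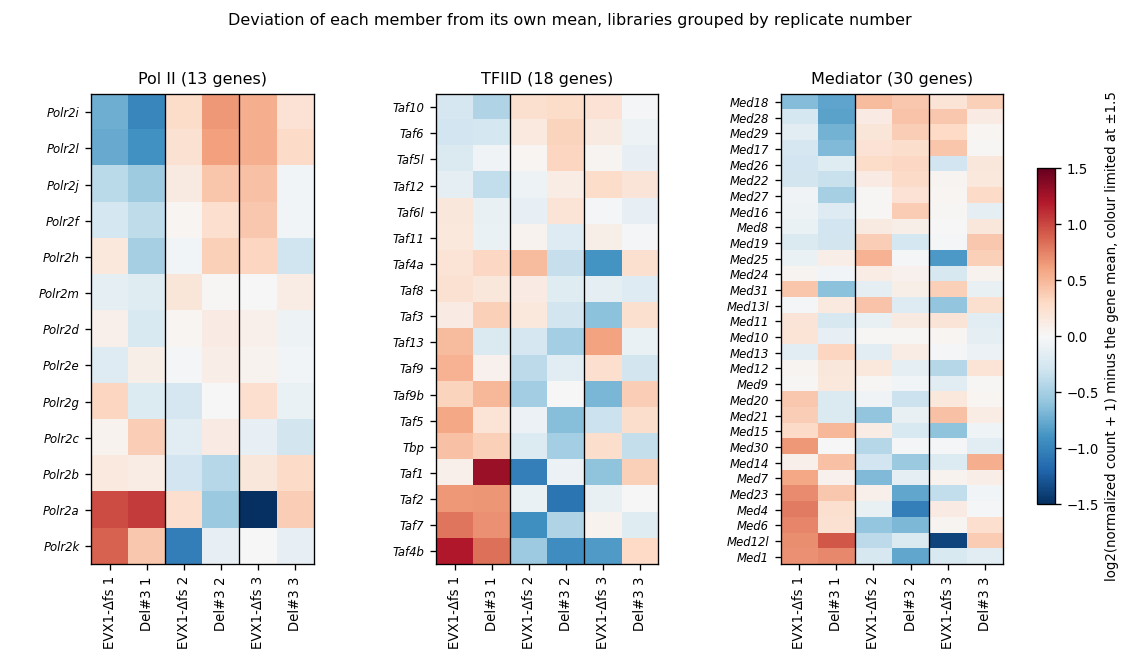
Log2(normalized count + 1) minus the mean of the gene, for the 61 tested members in 3 panels by complex, with libraries grouped by replicate number and genes ordered by the difference between replicates 2 and 1. The replicate 1 libraries of both lines are low (blue) for genes at the top of each panel, such as *Polr2i* and *Med18*, and high (red) for those at the bottom, such as *Taf4b* and *Med1*, and EVX1-Δfs replicate 3 is lowest for *Polr2a* and *Med12l*.

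The direction differed among the 5. *Polr2i* was higher in replicate 2 than in replicate 1 by 1.32 (SE 0.24) on the log2 scale and higher in replicate 3 than in 1 by 1.24, with an F test adjusted p of 0.0352 (limma). *Polr2l* had differences of 1.25 and 1.25 and an adjusted p of 0.0389 (limma). *Taf7*, *Taf1* and *Med1* were the reverse, with replicate 2 minus 1 at -1.43, -1.25 and -1.21 and replicate 3 minus 1 at -0.81, -0.81 and -0.90. Their adjusted p were 0.0403, 0.0429 and 0.0486 (limma). For each of these 5 genes both replicate 1 libraries lay on the same side of the other libraries of their own line.

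**Figure D4:**
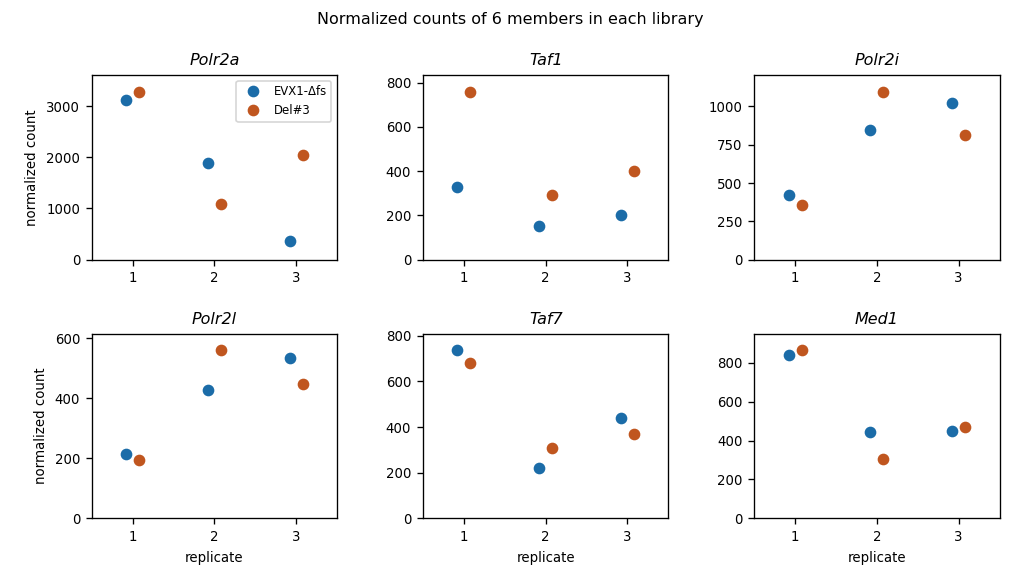
Normalized counts of *Polr2a*, *Taf1*, *Polr2i*, *Polr2l*, *Taf7* and *Med1* by replicate number, EVX1-Δfs in blue and Del#3 in orange, each point 1 library and each axis starting at 0. *Polr2i* and *Polr2l* are lowest in replicate 1 of both lines, *Taf7* and *Med1* highest there, *Taf1* is higher in Del#3 at every number, and *Polr2a* is at 369.8 in EVX1-Δfs replicate 3.

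Between replicates 2 and 1 alone, 3 members were higher in 2 (*Polr2i*, *Polr2l*, *Med18*, 4.92% against 3.37% of all genes) and 7 were lower (*Med1*, *Med4*, *Med6*, *Taf1*, *Taf2*, *Taf4b*, *Taf7*, 11.5% against 8.96%, limma contrast, adjusted p under 0.05). The largest of these differences was -1.75 for *Taf4b*. In TFIID, 5 of 18 members had a positive difference and the median was -0.40, in Pol II 8 of 13 and 0.15, and in Mediator 15 of 30 and 0.00. Over all genes tested 6245 of 12891 were positive and the median was -0.03. The smallest F values were those of *Med11*, *Polr2e* and *Med10*, at 0.0148, 0.107 and 0.11.

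The calls between days rested on the replicate 1 libraries. Without EVX1-Δfs replicate 1 the F test called 0 members and 197 of 13103 genes, and without Del#3 replicate 1 it called 1 member, *Polr2a*, and 1.62% of all genes. Without EVX1-Δfs replicate 2 or 3 it called 15 and 14 members, against 16.9% and 18.3% of all genes, and without Del#3 replicate 2 or 3 it called 10 and 19, against 11.1% and 24.2%. With TMM factors 3 members and 2.59% of all genes were called, and with totals 2 members, *Polr2i* and *Taf7*, and 2.46%. After a length and GC correction 6 members and 3.59% of all genes were called. *Polr2i* and *Polr2l* stayed among them, *Taf1*, *Taf7* and *Med1* did not, and *Med13*, *Med17*, *Med18* and *Med28* were added. *Polr2i* was called in all 8 fits on the 6 libraries.

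Transcript composition moved with these differences. Over the 60 tested members with a known length, replicate 2 minus 1 had a Spearman correlation across genes of 0.58 with GC content and -0.33 with transcript length, and over 11990 genes 0.49 and -0.35. Genes are not independent replicates, and all points share the same 6 libraries. Of the 30 members with a GC content below the median of 49.4%, 24 were lower in replicate 2 and 6 higher, and of the 30 others 9 were lower and 21 higher. Replicate 3 minus 1 had correlations of 0.31 with GC content and -0.45 with length, and over all genes 0.18 and -0.36. Replicate 3 minus 2 had correlations of -0.69 and -0.18, and over all genes -0.63 and 0.09. Between the lines, the log2 fold change of the members had a correlation of 0.11 with GC content and 0.39 with length, and over all genes 0.02 and 0.34. The part of GC content, length and depth in the differences between days beyond these values was not tested.

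**Figure D5:**
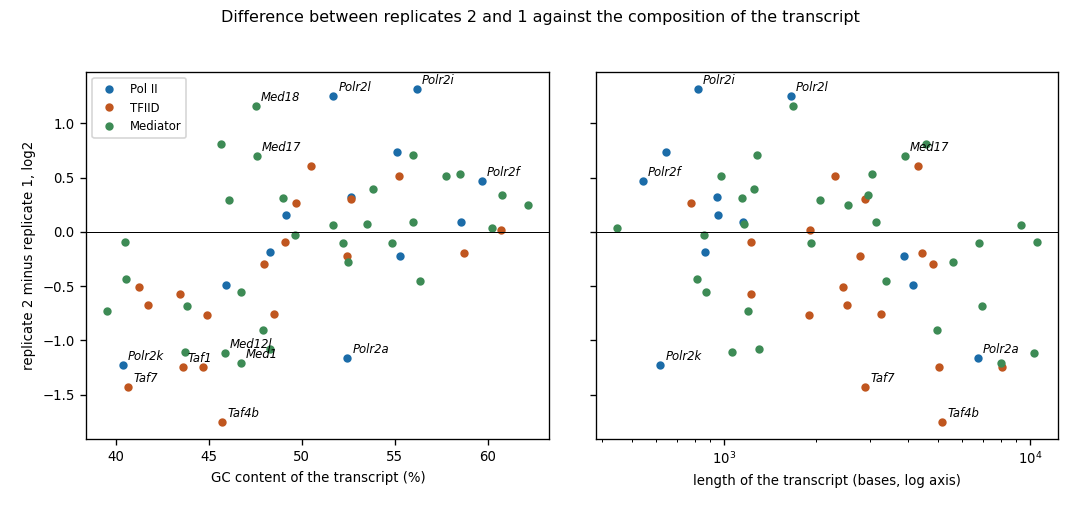
Replicate 2 minus replicate 1 (log2) of the 60 members with a known transcript, against its GC content (left) and its length in bases (right, log axis), coloured by complex. AT-rich transcripts such as *Taf7* (40.7% GC) and *Polr2k* (40.4%) lie below 0, and *Polr2i* (56.2%) and *Polr2f* (59.7%) above.

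Among the other machinery genes, 7 of 79 (8.86%) were called between days, against 4.24% of all genes. Over all genes these calls fell from 546 to 197 without EVX1-Δfs replicate 1 and to 211 without Del#3 replicate 1. These were *Gtf2a1* of TFIIA, *Btaf1*, which removes TBP from DNA, *Polr3g* of Pol III, and the elongation factors *Ccnt2*, *Supt16*, *Tcea1* and *Cdc73*. All had negative values for replicate 2 minus 1, from -2.11 for *Btaf1* to -1.58 for *Cdc73*. *Supt16*, of the histone chaperone FACT, read 1940.3, 679 and 904 normalized counts in EVX1-Δfs and 2271, 709 and 1303 in Del#3, highest in both replicate 1 libraries as *Taf7* and *Med1* were.

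The pattern of *Polr2a* over the 6 libraries was closest to that of 5 genes outside the set, *Rnpepl1*, *Fam222b*, *Sf3b4*, *Sh3bp1* and *Adamts20*, with Pearson correlations of log2 values of 0.9998, 0.9996, 0.9995, 0.9991 and 0.998. *Sf3b4*, which encodes a spliceosome subunit, read 1486, 1188 and 538 normalized counts in EVX1-Δfs and 1538, 907 and 1194 in Del#3. *Rnpepl1* read 445, 353 and 172 in EVX1-Δfs and 447, 273 and 366 in Del#3. Both were lowest in EVX1-Δfs replicate 3 and next lowest in Del#3 replicate 2, which is the order of *Polr2a*. Their highest value was 2.86 and 2.59 times the lowest, against 8.87 times for *Polr2a*. Among the members the correlations with *Polr2a* ran from 0.95 for *Med15* to -0.94 for *Polr2f*, with a median of -0.01. These are descriptions over 6 libraries.

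Over the 61 tested members, the highest library exceeded the lowest by a median of 1.96-fold, equal to the 1.96-fold of all genes tested. The range was below 1.5-fold for 15 members and above 3-fold for 9. The lowest value fell in Del#3 replicate 1 for 20 members, in Del#3 replicate 2 for 13 and in EVX1-Δfs replicate 3 for 12, and the highest in EVX1-Δfs replicate 1 for 18 and in Del#3 replicate 2 for 14.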

How the data were processed

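Poly(A)-selected RNA of D4 EBs was sequenced on an Ion Proton. According to the published methods, the authors aligned to mm9 (TopHat2, followed by TMAP), counted reads per gene with HTSeq at standard settings and used DESeq2, versions and annotation not given in the sources used here. The deposited values are signal values, namely counts divided by a size factor (normalized counts), for 15266 genes in 6 libraries. All values (100%) of a library proved to be whole-number multiples of its smallest step (tolerance 0.1 read), and dividing by that step gave back the reads. No column was left unused.

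Members were 62 genes chosen by symbol. The members, roles, pathway lists and promoter motifs were chosen with earlier results of these data known. Named genes followed a rule: the highest and lowest per kb in each role, members called or not kept by the filter, the extremes of both comparisons, and paralogue pairs, while the other members are given by range. limma (3.58.1, R 4.3.3) with an intensity trend was fitted to log2(normalized count + 1) of 12891 genes that passed filterByExpr of edgeR (4.0.16, minimum count 10), without a block, with Benjamini-Hochberg adjustment over all genes and a threshold of 0.05. The comparisons were Del#3 against EVX1-Δfs and, by a moderated F test, replicate days. Alternatives were the replicate block, edgeR's quasi-likelihood test and DESeq2 (1.42.0) on recovered reads, TMM factors or totals, pseudocounts of 0.1 and 5, no filter and leaving out each library. Added after seeing the data were a length and GC correction (loess, span 0.3, 11990 genes), DESeq2 with the block without the filter, DESeq2 and limma with the block and a library left out, and levels per kb of the longest coding transcript. The scripts were tested on simulated data.

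That equal replicate numbers share a day was inferred from the sample protocol and the published methods, and no label gives the day of a library. Deviations of same-numbered libraries correlated at 0.74, 0.32 and -0.05 for numbers 1, 2 and 3, so that the data show no pairing for number 3. EVX1-Δfs is 1 clone, and no clone is named for Del#3. The p-values thus measure the spread between differentiations, in EVX1-Δfs of that clone alone. Reads are not independent molecules, and intervals and floors cover counting error only where stated. Lengths and positions are from the GENCODE annotation of NCBIM37, the assembly of mm9, and promoters from RefSeq on GRCm38.p6, matched for 51 members. Protein sequences were not used here.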

Additional observations from a re-analysis of the deposited data

How the results depend on the processing

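Between the lines 0 members and 2 genes were called in the fit reported. On all 6 libraries, DESeq2 with the replicate block called 1 member (*Taf1*), with the low-count filter or without it, among 9 or 10 genes in all. The limma fit with the replicate block on all 6 libraries called 0 members and 3 genes, and the length and GC correction called 0 members and 1 gene. The count of members with an unadjusted p under 0.05 was 1 as reported (1.03% of all genes). It was 2 with the replicate block in limma, in edgeR, in DESeq2 and in DESeq2 without the filter (4.62%, 4.50%, 3.21% and 2.78% of all genes), 2 with the length and GC correction (1.43%) and 4 of 60 when that correction was combined with the replicate block (6.67%, against 4.14%), and 0 to 2 when 1 library was left out (0.599% to 3.47%). The members within 2-fold numbered 27 to 40 when 1 library was left out, and edgeR gives no standard error for that count. The share of all genes within 2-fold is not given for these fits. The median log2 fold change of the members moved by less than its spread over the 3 pairs (SD 0.086) under all 19 alternatives. *Taf1* kept a positive log2 fold change in all 32 alternative fits, from 0.65 to 1.34, and was called in 6. Those were DESeq2 with the replicate block (1.05 with the filter and 1.05 without), the same fit without EVX1-Δfs replicate 3 (1.09) or Del#3 replicate 3 (1.09), and limma with the replicate block without either of these (1.07 each, adjusted p 0.0133 and 0.0144, with 292 and 301 genes called in all). With the block, the fits without either replicate 3 library compare the same remaining pairs, so their calls are not separate support. Between days, 5 members and 546 genes were called as reported, 3 and 334 with TMM factors, 2 and 317 with totals, 6 and 430 with the length and GC correction, and 0 to 19 and 197 to 3175 when 1 library was left out. With the longest coding transcript, the normalized counts per kb of 7 members differed by over 1.5-fold (*Med11*, *Med22*, *Med7*, *Med8*, *Taf11*, *Taf12*, *Tbp*), and of 11 role groups the highest member did not change in 11 and the lowest in 10. The exception was the lowest of the Mediator middle, where *Med7* took the place of *Med1*. With 3 libraries per line, the interval of the difference exceeded 2-fold for 16 of 61 members. The causes of these changes were not tested.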
